A study of Homo sapiens with 32 samples.

Results

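Dense clusters of distal open chromatin were examined in HEK293T cells, a human embryonic kidney line. An ATAC-seq window was taken as distal when its centre lay more than 2000 bp from every transcript start of GENCODE release 44 on hg38. Distal windows whose centres were at most 3000 bp apart on one chromosome were joined into chains, and a chain of 6 or more windows was called a cluster. The rule found 431 clusters with 2794 windows, out of 148992 distal windows and 212358 windows of 401 bp in all. Most clusters were short: 288 held 6 windows, 101 held 7, 27 held 8, 9 held 9, 4 held 10 and 2 held 11, while a further 891 chains with 5 windows fell just outside the rule.

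The series asks what open chromatin does when ZNF143, a zinc finger activator that binds promoters, is degraded. All groups came from HEK_CloneZD29, a single HEK293T clone in which the design text gives ZNF143 an inducible degron tag. The compared groups were 8 libraries labelled DMSO (replicates 9 to 16, called control) and 8 libraries given 50 nM dTAGV-1 for 30 min with the same replicate numbers. A further 16 libraries, replicates 1 to 8 of each arm, enter only through a pooled list of 259926 summits, and their control labels name DMSO in the title but no treatment in another field. The protocol text calls the controls untreated. Loss of ZNF143 protein is not a readout of these files. Nothing in the labels says that the libraries came from separate cultures, so the p-values may measure only the spread between libraries.

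ATAC-seq uses the Tn5 transposase to cut DNA where nucleosomes leave it open. Far from promoters such sites are often enhancers, which bind sequence-specific factors and can act on genes over long distances, and enhancers that lie close together are often found near genes that define a cell's identity. Other distal open sites are bound by CTCF, the factor that anchors chromatin loops, or belong to tRNA genes, which RNA polymerase III transcribes from promoter boxes inside the gene itself. ZNF143 is known mostly from promoters, where it recruits the transcription machinery.

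Of the 8 clusters with the highest level, 4 held tRNA genes, and their sequences are shown for that reason. The GENCODE set used for the rule holds no tRNA genes, so their own starts did not remove these windows. RefSeq places 465 tRNA genes on its GRCh38.p14 table, and 20 of them lay in 8 of the clusters. One gene from each of the 4 strongest of these clusters follows on hg38, read 5′ to 3′ along its own strand, with the gene in capitals and 25 bases on each side in lower case. The core of the inner B box, a contact of the polymerase III factor TFIIIC, was found as GTTCAA at base 52 of the first gene, as GTTCGA at base 53 of the second and the third, and as GTTCGA at base 62 of the last.
TRP-CGG1-1, chr1:167714700-167714821, plus strand: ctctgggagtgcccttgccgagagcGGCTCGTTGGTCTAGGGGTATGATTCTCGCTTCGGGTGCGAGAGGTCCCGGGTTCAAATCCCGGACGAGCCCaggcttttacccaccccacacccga
TRR-CCG1-3, chr16:3150649-3150771, plus strand: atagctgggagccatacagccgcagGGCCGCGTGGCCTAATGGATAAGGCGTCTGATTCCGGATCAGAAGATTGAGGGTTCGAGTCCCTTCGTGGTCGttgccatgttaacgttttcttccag
TRV-TAC1-1, chr11:59550604-59550726, minus strand: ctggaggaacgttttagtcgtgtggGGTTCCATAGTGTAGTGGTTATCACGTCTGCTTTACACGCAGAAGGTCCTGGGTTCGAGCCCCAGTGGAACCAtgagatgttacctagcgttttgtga
TRS-TGA2-1, chr6:27545664-27545795, plus strand: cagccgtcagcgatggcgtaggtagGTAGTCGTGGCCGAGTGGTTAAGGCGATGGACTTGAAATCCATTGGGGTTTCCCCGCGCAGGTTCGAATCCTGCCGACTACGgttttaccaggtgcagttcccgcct

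The cluster with the highest level held no tRNA gene but 2 matches to the CTCF consensus, which are rare in clusters. They are shown with 30 bases on each side, on the strand that carries the match, with the match in capitals. Both matches lay on the minus strand of chromosome 5, in the cluster that overlaps PRR7 and DBN1.
CTCF match left in the DBN1 cluster, chr5:177454545-177454616, minus strand: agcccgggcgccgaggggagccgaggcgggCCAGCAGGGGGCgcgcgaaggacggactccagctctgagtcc
CTCF match right in the DBN1 cluster, chr5:177456501-177456572, minus strand: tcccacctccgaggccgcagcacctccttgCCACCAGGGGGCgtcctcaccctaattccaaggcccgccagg

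Since the treatment acts on ZNF143, the 4 ZNF143 core matches with the highest control level in clusters are shown as well, with the core in capitals and 30 bases on each side. Core matches of either accepted form were found in 11 cluster windows. A match in these letters is not evidence that the factor was bound.
ZNF143 core near RAN, chr12:130878365-130878434, minus strand: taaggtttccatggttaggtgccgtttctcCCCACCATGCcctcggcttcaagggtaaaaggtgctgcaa
ZNF143 core near PAX2, chr10:100654689-100654758, minus strand: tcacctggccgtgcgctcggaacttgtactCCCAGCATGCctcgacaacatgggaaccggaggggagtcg
ZNF143 core near ZNF521, chr18:25282536-25282605, minus strand: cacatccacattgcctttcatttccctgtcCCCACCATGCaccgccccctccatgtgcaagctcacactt
ZNF143 core near DDX3X, chrX:41351518-41351587, plus strand: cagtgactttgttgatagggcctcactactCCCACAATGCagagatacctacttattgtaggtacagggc

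Among the libraries of replicates 9 to 16, total counts ran from 2275856 to 13671039. Control replicate 12 and dTAGV-1 replicate 12 were the shallowest and dTAGV-1 replicate 11 came next. In these 3 libraries the signal was flatter: the tenth of windows with the highest level took 31.99%, 39.0% and 41.8% of their counts, against 45.9% to 49.6% in the other libraries. Strong promoter windows at HEK293T marker genes checked the cell type. Of 8 such genes, 7 had a promoter window above the median window, among them CDH2 at 39.3 CPM, while LHX1 had none. Of 11 markers of blood, liver, heart, fibroblasts and endothelium, COL1A1 alone was above the median, at 14.3 CPM.

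A cluster was compact. Its median span was 4443 bp, from 1321 to 16805 bp, of which a median of 2232 bp was covered by windows. The windows overlapped heavily: 62.3% of cluster windows overlapped another window, against 26.7% of other distal windows. Windows whose names share a number and differ by a letter were read as windows of one called peak, which the sources used here do not state. By this reading a cluster drew its windows from a median of 4 peaks, with 9 clusters made from 1 peak and 60 from 6 or more. Neighbouring windows that overlap share counts and are not separate measurements. In 68 clusters 6 or more windows could be laid without overlap, 16 clusters had no overlapping windows at all, and in 49 every window overlapped another. When windows that overlap were counted once, the rule gave 64 clusters with 415 windows.

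Clusters lay both in genes and between them. The span overlapped the body of a protein-coding gene in 225 clusters, a long noncoding RNA gene alone in 46, and neither in 160. The nearest protein-coding start was at a median of 31247 bp from the span. Among the 337 clusters outside the chromosome 13 segment described below, 298 shared their nearest coding gene with no other of the 337. Outside the chromosome 13 segment described next, 5 genes were nearest to 3 clusters each: AKAP13, an anchoring protein of protein kinase A, MBNL1, a splicing regulator, MEIS1, a homeobox factor, NCOA2, a nuclear receptor coactivator, and SEMA3C, a secreted guidance cue.

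Of the 431 clusters, 94 or 21.8% lay in one segment of chromosome 13. This segment, chr13:61000001-95000000, was the longest run of 1 Mb bins with 100 or more distal windows each. It measured 34 Mb, against 11 Mb for the next longest run, on chromosome 18, and 10 Mb for the third, on chromosome 1. It held 617 cluster windows, or 22.1%, against 4.96% of the other distal windows. The segment was defined after its density had been seen, so its share of the clusters is a description.

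The rule for the segment fixes a step across 100 windows per Mb at each edge, so the counts there are a description. The bins to the left of it held 54 and 62 distal windows per Mb, and the first bins inside held 144, 348 and 308. On the right side the last bins inside held 198, 226 and 192, and the next 5 bins 82, 35, 68, 107 and 117. The median was 222.5 distal windows per Mb inside, 48 in the 10 Mb on each side and 46 in all other bins with a window. The summit list made from the other 16 libraries was dense in the segment too, with 259.5 summits per Mb inside, 77.5 beside it and 86 elsewhere.

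**Figure D1:**
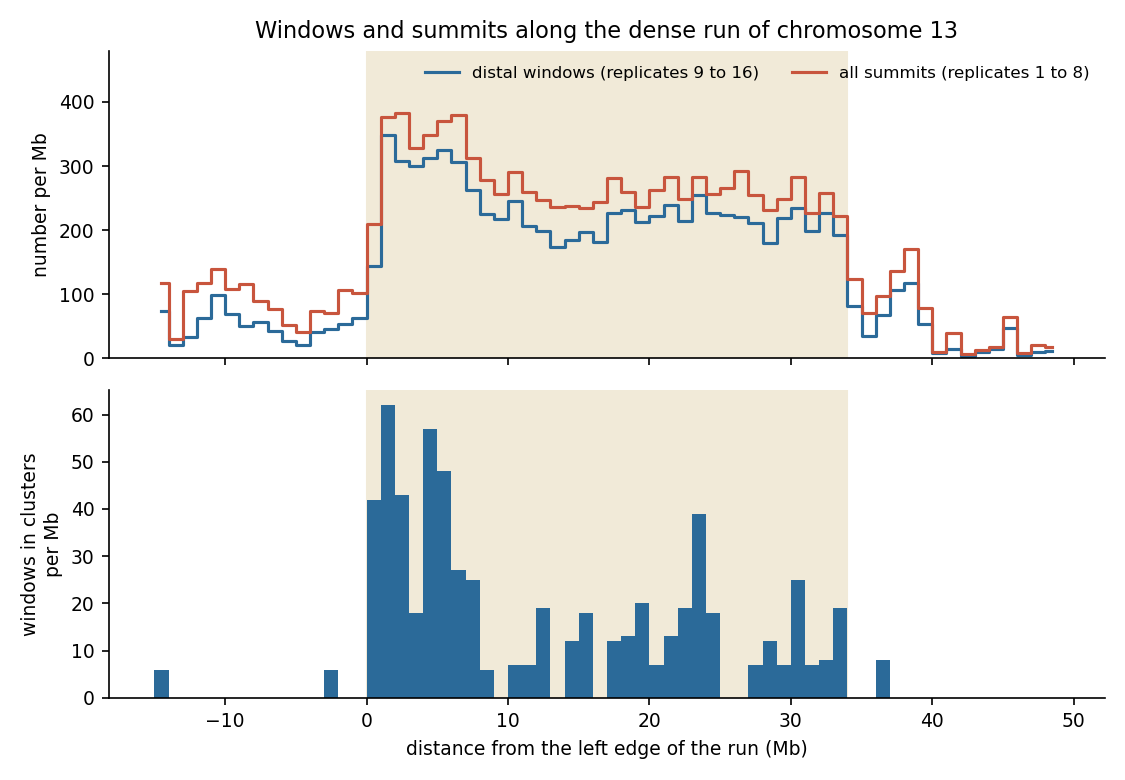
Number of distal windows and of summits per 1 Mb bin (upper panel) and of cluster windows per bin (lower panel), against the distance in Mb from the left edge of the chromosome 13 segment, which is shaded. Both lists step up at the left edge and down at the right edge, from 62 distal windows in the bin before the segment to 348 in its second bin.

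The segment is poor in coding genes. It held 41 of them, and 17 of its 94 clusters (18.1%) overlapped a coding gene, against 208 of the 337 clusters elsewhere (61.7%). The nearest coding gene was PCDH9, a protocadherin adhesion molecule of neurons, for 21 clusters, SLITRK1, a neuronal transmembrane protein, for 11, GPC5, a glypican, for 7, SPRY2, an inhibitor of receptor tyrosine kinase signalling, for 4 and SLITRK6, a relative of SLITRK1, for 3. Coding genes listed without a symbol were nearest to 10, 10 and 6 more. The median distance from such a cluster to a coding start was 356596 bp, against 19252 bp elsewhere.

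Cluster windows of the segment were called with lower confidence than those elsewhere. Levels are given as CPM, counts set to a common library size after TMM scaling, and the confidence as the authors' -log10 q per window. The median -log10 q was 9.27 for cluster windows in the segment and 17.02 for cluster windows elsewhere, while the median control level was 2.60 and 2.51 CPM over all 8 controls. The mean level in the 6 controls other than replicates 11 and 12 was 2.67 CPM in the segment and 3.33 CPM elsewhere, tRNA windows left out. Among windows with a -log10 q from 5 to 10, and over all 8 controls, the median level was 2.43 CPM in clusters of the segment and 1.81 CPM in clusters elsewhere. In the same range it was 1.86 CPM for other distal windows of the segment and 1.34 CPM for those elsewhere. In this range of q, windows of the segment had the higher median, whether in clusters or not. Their GC content was lower, with a median of 41.4% against 44.6%. The number of copies of the segment in this clone was not analysed here, and its part in the density was not tested.

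The level of the segment also moved with the flatness of the library. Its cluster windows averaged 5.31 CPM in control replicate 12, 4.51 CPM in dTAGV-1 replicate 12 and 3.67 CPM in dTAGV-1 replicate 11, against 2.38 to 3.29 CPM in the other 13 libraries. The mean over cluster windows elsewhere, those at tRNA genes left out, was between 3.09 and 3.45 CPM in all 16 libraries. Single clusters behind this mean moved in both directions. In control replicate 12 the cluster in ERC2 had 3.17 CPM, against 1.30 to 2.02 CPM in the other controls. The DBN1 cluster had 10.1 CPM there, against 16.8 to 20.6 CPM. Windows at tRNA genes ran against the segment. They had 11.4 CPM in control replicate 12, 13.97 CPM in dTAGV-1 replicate 12 and 15.9 CPM in dTAGV-1 replicate 11, and 16.3 to 21.4 CPM in the others. Flatness was measured on the windows with the highest control level, so low values of strong windows in flat libraries are partly built in. They are not particular to tRNA genes, since the DBN1 cluster holds none. Both arms held flat libraries, and the part of flatness in these levels was not tested.

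**Figure D2:**
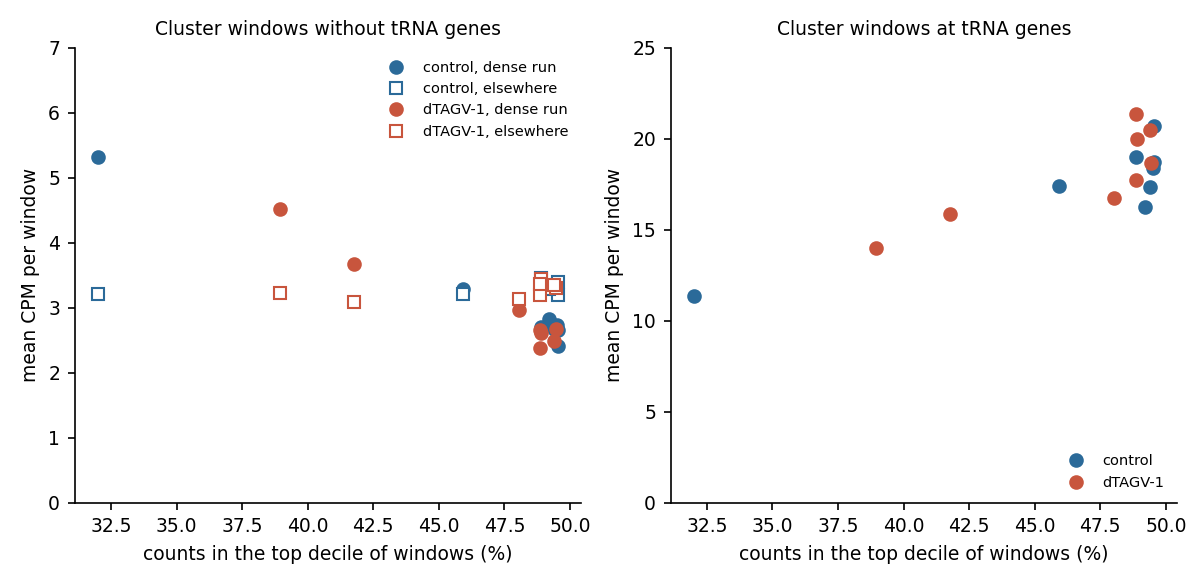
Mean CPM per cluster window in each of the 16 libraries against the share of its counts in the tenth of windows with the highest level, for clusters in the chromosome 13 segment and elsewhere (left) and for windows at tRNA genes (right). Each point is 1 library, and the 3 libraries with shares of 31.99% to 41.8% are the highest for the segment and the lowest for tRNA genes. The share is taken over the strongest windows, so low values of strong windows at a low share are partly built in.

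Distal windows had a higher level the more neighbours they had. The median control level was 1.67 CPM for distal windows on their own, 1.79 CPM in chains of 2, 2.04 CPM in chains of 3 to 5 and 2.55 CPM in clusters. The authors' -log10 q went the other way, with medians of 19.7, 16.2, 15.3 and 14.6. A summit from the other libraries lay in 83.6%, 76.8%, 75.9% and 75.3% of the windows. Overlapping windows share counts, and their part in the level was not tested. Promoter windows, with a centre within 500 bp of a transcript start, had a median of 7.17 CPM.

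CTCF matches became rarer with chain length. Within 100 bp of the centre, on both strands, the CTCF consensus was found in 5.30% of the windows on their own, 2.56% in chains of 2, 1.18% in chains of 3 to 5 and 0.573% in clusters, where it was 16 of 2794 windows. Of these 16, 0 lay in the chromosome 13 segment. The order held in windows of like confidence: with a -log10 q of 40 or more the shares were 11.96%, 6.63%, 3.25% and 1.65%, the last from 10 of 606 windows. It held also in windows that overlap no other, at 5.32%, 3.04%, 1.48% and 0.856%. These shares were compared without a test.

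Matches to other families differed less. The FOX letters TGTTTAC were found in 7.21% of the windows on their own and 3.79% in clusters, and the SOX letters ACAAAG in 16.9% and 13.2%. The GATA letters AGATAA ran the other way, with 12.2% and 14.4%. The AP-1 site TGACTCA was in 6.49% and 5.33%, and the TEAD site GGAATG in 11.9% and 10.99%. The E-box CAGCTG was in 14.2% and 11.8%, the POU octamer ATGCAAAT in 0.843% and 0.931%, and the HOX and PBX letters TGATTTAT in 1.24% and 1.65%. The SP and KLF letters GGGGCGGGG, common in promoters, were in 0.716% of cluster windows and 13.95% of promoter windows. Cluster windows had a median GC content of 43.9% and promoter windows 62.6%, and some of these letters follow base composition.

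**Figure D3:**
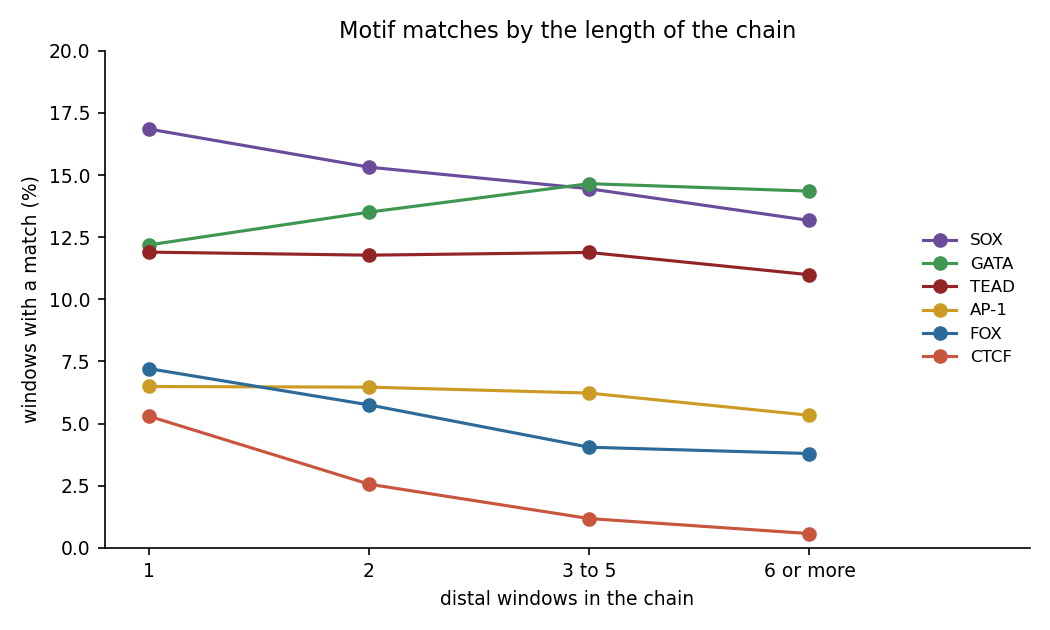
Share of distal windows with a motif match within 100 bp of the centre, for windows on their own and in chains of 2, of 3 to 5 and of 6 or more. CTCF falls from 5.30% to 0.573% and FOX from 7.21% to 3.79%, while TEAD stays between 10.99% and 11.9%.

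Windows at tRNA genes had a high level within the clusters. A tRNA gene lay within 200 bp of 21 cluster windows, or 0.752%, against 0.129% of other distal windows. Their median control level was 15.2 CPM, from 5.41 to 49.5 CPM, and that of the other cluster windows was 2.54 CPM. Outside clusters, windows at tRNA genes had a median of 12.4 CPM in chains of 3 to 5 and 13.6 CPM in chains of 2. The 37 distal windows on their own at tRNA genes had a lower median of 3.43 CPM. Ranked by mean level per window, the 8 tRNA clusters all stood among the highest 19 of 431, and 4 of them among the highest 8. In 7 of the 8 the strongest window was one with a tRNA gene, the exception being the cluster beside MPZL1. tRNA genes have near-identical copies, and 68.2% to 97.035% of the 31-base words of these windows occur once in the genome, so that reads of some copies may be split between loci.

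The tRNA clusters, in the order of their level, began with the one beside MPZL1 on chromosome 1, at chr1:167714219-167716906. It holds TRP-AGG2-1 and TRP-CGG1-1, 2 proline tRNA genes, and its mean level per window was 12.9 CPM in the lowest, 18.2 in the median and 21.9 in the highest control library. In the dTAGV-1 libraries the same values were 15.4, 18.2 and 21.3 CPM, so that the arms overlapped. The cluster nearest ZNF213, chr16:3149603-3153115, holds the arginine genes TRR-CCG1-3 and TRR-CCT3-1, and ran from 10.8 to 18.6 CPM in control (median 17.9) and from 13.7 to 20.2 CPM with dTAGV-1 (median 18.8). The window around TRR-CCG1-3 stood at 30.4 CPM.

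The cluster nearest OR4D9, an olfactory receptor gene, lay at chr11:59549858-59552295 and holds 4 tRNA genes, for leucine, arginine and valine. Its window at TRV-TAC1-1 was the strongest of all cluster windows named here, with 49.5 CPM, while the weakest of its windows had 3.75 CPM. The cluster's level ran from 8.38 to 18.7 CPM in control (median 16.5) and from 11.9 to 19.2 CPM with dTAGV-1 (median 15.8). Further tRNA clusters lay on chromosome 6: 2 nearest to ZNF184, with control medians of 13.3 and 12.8 CPM, 1 nearest to POM121L2 with 8.70 CPM and 1 nearest to ABT1 with 8.63 CPM. The last, nearest to OR6S1 on chromosome 14, had 9.48 CPM.

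Among the clusters without tRNA genes, the one with the highest level covered parts of PRR7, a membrane protein of synapses, and DBN1, the actin-binding protein drebrin, at chr5:177454006-177457951. It has 8 windows of 9.35 to 31.9 CPM and a median GC content of 70.6%. Control libraries ran from 10.1 to 20.6 CPM per window (median 18.6) and dTAGV-1 libraries from 12.9 to 19.9 CPM (median 18.7). The lowest value of each arm came from replicate 12.

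The cluster in BCOR, a corepressor that joins BCL6 and a Polycomb complex, lay at chrX:40105460-40109305 with 7 windows. Its level was 7.54 to 14.3 CPM in control (median 12.4) and 9.19 to 14.5 CPM with dTAGV-1 (median 11.5). The cluster beside SOX4, a transcription factor of progenitor cells, had 9 windows in 2589 bp with every window overlapping another, at chr6:21587048-21589636. It ran from 8.44 to 13.3 CPM in control (median 10.9) and from 8.35 to 13.7 CPM with dTAGV-1 (median 11.04). The cluster nearest NBPF8, at chr1:120556972-120559115, had control values of 10.3 to 17.9 CPM, but 15.9% of the 31-base words of its median window are unique, so its counts may belong to several copies. In all, 19 clusters had a median under 50%.

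**Figure D4:**
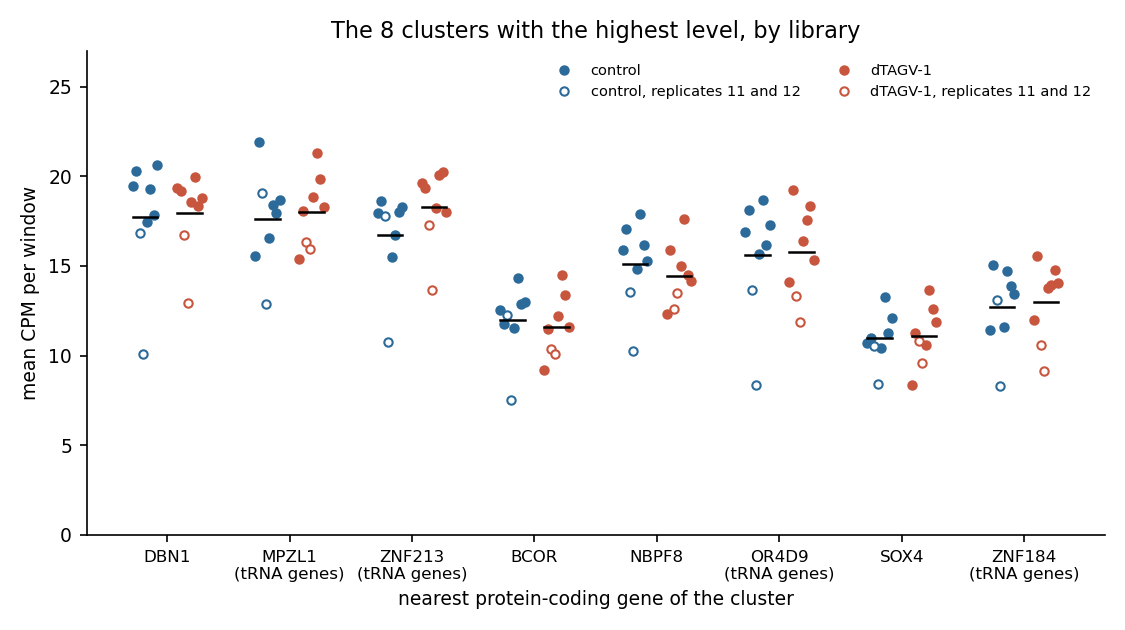
Mean CPM per window of the 8 clusters with the highest level, 1 point per library, with the mean of each arm as a line and replicates 11 and 12 as open points. The arms overlap in all 8 clusters, and control replicate 12 is the lowest control library in each, at 7.54 CPM for BCOR and 10.1 CPM for DBN1.

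The 8 clusters with the most windows include the compact SOX4 cluster. The other 7 were wider and had lower levels, with windows spread over a gene body or between genes. The one in TMEM131L, a transmembrane protein gene, at chr4:153477095-153493899, held 11 windows with no overlap over 16805 bp, from 1.82 to 6.66 CPM. Its level per window was 2.85 to 5.04 CPM in control (median 4.06) and 2.94 to 5.09 CPM with dTAGV-1 (median 4.38). Another with 11 windows lay in LINC00448 on chromosome 13, at chr13:62678283-62693119, with 1.65 to 3.83 CPM per window. Those in ZZZ3, a subunit of a histone acetyltransferase complex, GALNT7, which starts O-linked glycosylation, and ERC2, a protein of the presynaptic zone, had 10 windows each and control medians of 3.10, 2.30 and 1.70 CPM. The cluster in PCDH9 also had 10 windows and a control median of 2.63 CPM. The strongest window of a cluster held a median of 22.6% of the cluster's summed levels, from 11.9% to 100% over 429 clusters. Overlapping windows share counts, and their part in this share was not tested.

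Of 20020 protein-coding genes, 338 or 1.69% were nearest to a cluster, and the gene lists are given beside that share without a test. Of 24 kidney developmental regulators, PAX2, which drives kidney formation, had 1 cluster and MEIS1 had 3. The PAX2 cluster, 78511 bp from a start of PAX2, had a level of 3.87 to 5.91 CPM in control (median 5.10) and 4.39 to 6.15 CPM with dTAGV-1 (median 5.16). The MEIS1 clusters had control medians of 1.50, 4.02 and 3.95 CPM. Of 18 neuronal and neural crest genes SOX4 had 1, and of 22 immediate-early and growth genes ATF3, a stress-induced factor, DUSP6, an ERK phosphatase, and KLF4, a pluripotency factor, had 1 each, with control medians of 2.20, 2.60 and 1.61 CPM. Of 10 chromatin architecture genes 0 had a cluster.

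The comparison of dTAGV-1 with control asked whether clusters changed within 30 min. No cluster window passed the test. In the quasi-likelihood test of edgeR, adjusted after Benjamini and Hochberg over 185040 windows, 397 windows (0.215%) passed an adjusted p of 0.05, and 0 of the 2642 cluster windows with enough counts were among them. At an unadjusted p under 0.05, 42 cluster windows were lower and 30 higher, or 2.73%, against 2.85% of all windows tested. DESeq2 called 0 as well, with 35 lower and 29 higher at an unadjusted p under 0.05. Over all windows the count was 632 without control replicate 12, 781 without replicates 11 and 12 of both arms, and 753 with the replicate number as a block. Of cluster windows, 1 lower and 1 higher were called in each of the first 2 of these fits and 1 lower in the last. The share called was 0.175% for distal windows on their own, 0.0760% in chains of 2, 0.0519% in chains of 3 to 5 and 0.567% at promoters.

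No cluster passed when its counts were summed. Summed units were every chain of any length and every remaining window, and 390 of 143582 units (0.272%) passed in edgeR, with 0 of the 427 tested clusters among them. At an unadjusted p under 0.05, 1 cluster was lower and 1 higher, and DESeq2 called 0, with 1 lower and 2 higher at that level. With the replicate number as a block, edgeR gave 19 lower and 6 higher, and without replicates 11 and 12 of both arms 12 and 3. Without control replicate 12 the counts were 0 and 7, and without dTAGV-1 replicate 12 they were 10 and 0. The share of all units at that level was not counted, so these counts are not read as a result about the clusters. Calls over all units moved between these fits too. At an adjusted p of 0.05 in edgeR, 388 units were lower and 2 higher in the main fit. The counts were 736 and 12 with the block, and 746 and 12 without replicates 11 and 12 of both arms. The 95% interval of the log2 fold change lay within -1 and 1 for all 427 clusters, and its bounds over the clusters ran from -0.82 to 0.94. A change smaller than a cluster's interval was not detectable with these libraries. In simulated tables of this size, the unit test recovered 61 of 100 planted changes of 1 on the log2 scale and 12 of 100 of 0.5. These changes were planted in units drawn at random from all units, and recovery among clusters was not counted.

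The median log2 fold change of the clusters was -0.02, against 0.01 over all units. A negative sign was seen in 253 clusters, or 59.3%, against 48.3% of all units. Without control replicate 12 the cluster median was 0.00, and without replicates 11 and 12 of both arms it was -0.02 against 0.00 over all units. It was -0.05 without control replicate 10 and -0.05 without dTAGV-1 replicate 12, against 0.01 over all units in each, so single libraries moved it in both directions. In 0 clusters were the values of the arms apart from each other. The share of all units with arms apart was not counted, so this count is a description only.

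**Figure D5:**
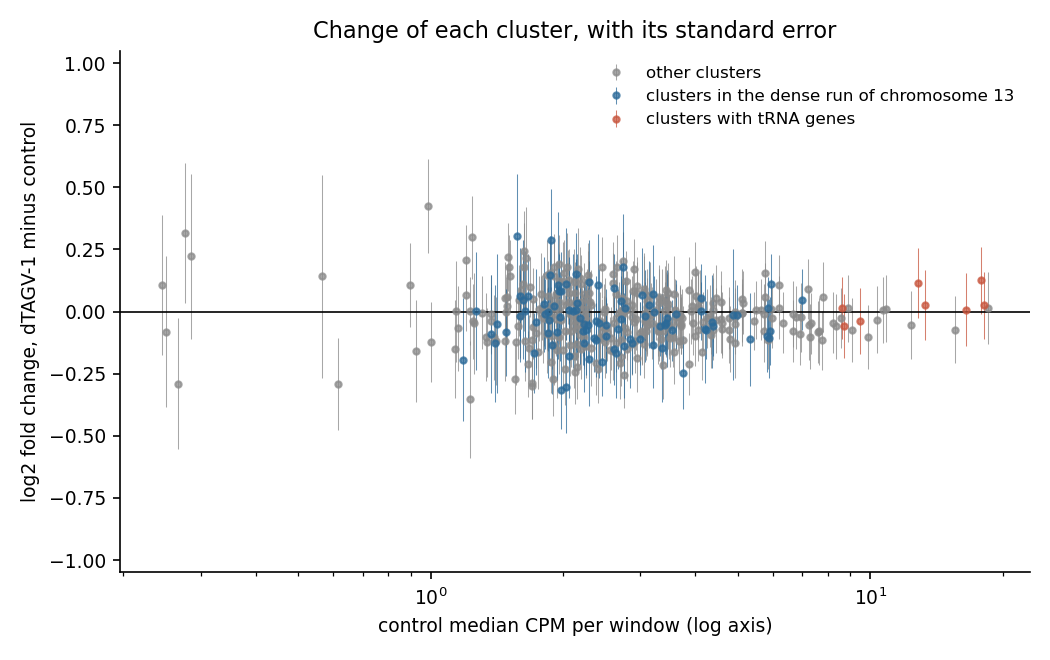
Log2 fold change of dTAGV-1 against control for the 427 tested clusters, with its standard error, against the control median CPM per window on a log axis. The points lie between -0.35 and 0.43, and the 8 tRNA clusters between -0.06 and 0.13.

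The clusters with the smallest p-values are given as values, since none passed. Nearest CEP295, a centriole protein, the level per window was 1.31 to 2.26 CPM in control (median 1.70) and 1.02 to 1.67 CPM with dTAGV-1 (median 1.38). The arms overlapped, and the log2 fold change was -0.30 (SE 0.13), with an unadjusted p of 0.0285 and an adjusted p of 1.00 in edgeR. The clusters in PIBF1, a protein of centriolar satellites, and nearest ANKRD50, which acts in endosomal recycling, had log2 fold changes of -0.31 and -0.29. On the other side, the cluster in SRPK2, a kinase of splicing factors, ran from 0.548 to 1.28 CPM in control (median 0.987) and from 0.757 to 2.27 CPM with dTAGV-1 (median 1.17), a log2 fold change of 0.43 at an unadjusted p of 0.0305 and an adjusted p of 1.00 in edgeR. Without dTAGV-1 replicate 11 it was 0.28. Those in KIT, the receptor of stem cell factor, and nearest RASSF6, a Ras-association protein, had 0.30 and 0.20.

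The call of 2 single windows changed when 1 library was left out. The window chr4:54675644-54676044 inside KIT had 0.413 to 3.92 CPM in control (median 1.08) and 1.26 to 2.77 CPM with dTAGV-1 (median 2.37). Its highest control value was that of control replicate 12. The log2 fold change was 1.02 with an adjusted p of 0.569 in edgeR, and without control replicate 12 it was 1.28 with an adjusted p of 0.0137. The window chr1:120558341-120558741 in the NBPF8 cluster had 19.97 to 45.1 CPM in control (median 38.8) and 20.8 to 35.9 CPM with dTAGV-1 (median 27.9). Its log2 fold change was -0.39 with an adjusted p of 1.00 in edgeR, and without control replicate 12 it was -0.47 with an adjusted p of 0.0349. With all 16 libraries and the replicate number as a block, it was -0.40 with an adjusted p of 0.00166.

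Cluster windows with a ZNF143 core match were few, 11 or 0.394%, against 0.519% of other distal windows and 0.854% of promoter windows. They lay in 11 clusters. Their log2 fold changes ran from -0.51 to 0.12 with a median of -0.11, and 0 passed edgeR's test, also at an unadjusted p under 0.05. The strongest, near RAN, the nuclear transport GTPase, had 4.64 to 8.86 CPM in control (median 5.64) and 3.80 to 8.73 CPM with dTAGV-1 (median 7.02), with a log2 fold change of 0.12 (SE 0.15). The one in the PAX2 cluster had medians of 5.21 and 5.81 CPM and a log2 fold change of 0.09 (SE 0.17). The arms overlapped in both. Of 650 tested other distal windows with a core match, 11 passed.

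The share of each library's counts that fell in cluster windows was 0.946% ± 0.141 in control and 0.928% ± 0.0908 with dTAGV-1 (SD, n = 8 each). It ran from 0.845% to 1.29% in control and from 0.852% to 1.13% with dTAGV-1, so the arms overlapped. Both highest values came from replicate 12. Without replicates 11 and 12 the means were 0.889% and 0.884%.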

How the data were processed

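ATAC-seq counts per window for 16 libraries, with 8 controls and 8 given dTAGV-1, were analysed. The authors deposited whole-number counts, not normalized, and a -log10 q for each window from their peak calling. The authors also deposited a list of summits with a -log10 score, pooled over replicates 1 to 8. The submitters' processing notes name cutadapt 1.8.1, Bowtie2 2.4.4, SAMtools 1.9 and hg38. The peak caller, the counting tool, the read filters and any shift for Tn5 are not given in the sources used here. The number of unused columns was 0.

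The cluster windows, the gene and motif lists and the rules were chosen with earlier results of these data known. The chromosome 13 segment, the tRNA windows and the motif shares within ranges of q were chosen after seeing the data. Clusters named were the 8 with the most windows, the 8 with the highest mean log2 CPM per window in control, and, since none passed, the 3 with the smallest p in each direction. The strongest window of a named cluster could be named too. The KIT and NBPF8 windows and the windows with a tRNA gene or a ZNF143 core were singled out after their values were seen.

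The quasi-likelihood test of edgeR 4.0.16 under R 4.3.3 was run after filterByExpr and TMM scaling, without covariates, over all windows and over all summed units. P-values were adjusted by the Benjamini-Hochberg method and called at 0.05. Standard errors come from the test statistic and log2 CPM use a prior count of 2. DESeq2 1.42.0, no filter, a replicate block and leaving out libraries were alternatives. On simulated data, 66 of 100 planted window changes of 1 and 6 of 100 of 0.5 on the log2 scale were recovered, with 5 false calls among 185040 windows. Among the 56 pairs of libraries within an arm, chi-square per degree of freedom ran from 1.63 to 5.01, so no pair looked like a repeat of one library. Filtered out were 152 cluster windows and 4 clusters, of which 2 had 0 counts in every library. Library totals of 2275856 to 13671039 counts set the precision, and intervals cover the spread between libraries. Genes came from GENCODE release 44 and tRNA genes from RefSeq. Word uniqueness was counted over 31-base words of hg38.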

Additional observations from a re-analysis of the deposited data

Results flagged for a closer look

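The highest and lowest library of each arm were compared with the rest of the arm by Dixon's gap test, over 46 sets of 8 libraries, of which chance marks about 1 in 20. Control replicate 12 stood apart in 11 of them and dTAGV-1 replicate 12 in 2. The share of counts in cluster windows was 1.29% in control replicate 12, against 0.845% to 0.951% in the other controls. The share of counts in the chromosome 13 segment was 4.90% there, against 2.41% to 3.03%.

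Clusters of that segment were high in control replicate 12. The mean level per window was 5.41 CPM in the cluster in LINC00448 (others 2.14 to 3.17 CPM), 6.56 CPM in PCDH9 (2.19 to 3.42 CPM), 11.4 CPM in the cluster at chr13:61954093-61965161 (4.38 to 6.19 CPM) and 3.27 CPM in PIBF1 (1.56 to 2.25 CPM). Elsewhere it was high at ERC2 with 3.17 CPM (1.30 to 2.02 CPM) and at KIT with 2.67 CPM (0.943 to 1.43 CPM).

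Strong clusters were low in replicate 12. The DBN1 cluster had 10.1 CPM in control replicate 12 (others 16.8 to 20.6 CPM) and 12.9 CPM in dTAGV-1 replicate 12 (16.7 to 19.9 CPM). The ZNF213 cluster with its tRNA genes had 10.8 CPM (15.5 to 18.6 CPM) and 13.7 CPM (17.3 to 20.2 CPM). The BCOR cluster had 7.54 CPM in control replicate 12 (11.5 to 14.3 CPM). Both libraries were among the 3 with the lowest totals and the flattest signal, and the part of depth was not tested.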

How the results depend on the processing

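The number of clusters depended on the rule. Chaining at 2000 bp gave 1608 windows in 253 clusters and at 4000 bp 5206 in 776. A minimum of 5 windows gave 7249 in 1322, a minimum of 8 gave 359 in 42, and counting windows that do not overlap gave 415 in 64. A distance from starts of 1000 or 5000 bp kept both counts within 1.5 times. Of the counts in distal windows alone, clusters held 2.24% in control and 2.21% with dTAGV-1. The count of called clusters was 0 under every alternative run. Of cluster windows, 0 to 1 were called lower and 0 to 1 higher when each library was left out in turn, and 1 lower (NBPF8) and 1 higher (KIT) without replicates 11 and 12 of both arms. Over all windows, 321 to 632 were called when each library was left out, the last without control replicate 12, and 781 without replicates 11 and 12. The 6 clusters with the smallest p-values kept their direction under all alternatives, with the SRPK2 cluster moving from 0.43 to 0.28 without dTAGV-1 replicate 11 and the KIT cluster from 0.30 to 0.45 on windows that do not overlap. These clusters were picked by p in each direction from the same libraries. Their kept direction was therefore nearly fixed by the choice and is no support for a change. DESeq2 called 508 of all windows and no filter 363. Of 100 planted window changes of 0.5 on the log2 scale, 6 were recovered; depth and the spread between libraries were not varied apart.

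With the replicate number as a replicate block, 753 of all windows were called, with 1 cluster window lower, the one in the NBPF8 cluster, at an adjusted p of 0.00166 in edgeR. The labels do not say that a number marks a pair. Over all tested windows the correlation of deviations between libraries with the same number was 0.03 to 0.34, above 0.1 in 5 of 8 pairs, and 10 of 16 libraries correlated best with their own number. Over windows at or above the median level it was 0.11 to 0.34, above 0.1 in 8 of 8 pairs, and 13 of 16 libraries correlated best with their own number.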
